A study of Drosophila melanogaster with 8 samples.

Results

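Heat shock proteins are chaperones that keep other proteins from misfolding and clumping. The small heat shock proteins, which share an alpha-crystallin domain, hold unfolded proteins in a soluble state without using ATP, whereas Hsp90 uses ATP to mature kinases, receptors and other client proteins. In flies the heat shock factor Hsf switches on both kinds of gene under stress, and several small heat shock genes are also induced by the steroid hormone ecdysone late in larval life without any heat.

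The 9 genes described here were taken by symbol from the 14210 genes listed in each library: the small heat shock genes Hsp22, Hsp23, Hsp26, Hsp27, Hsp67Ba, Hsp67Bc and l(2)efl, the cytosolic Hsp90 gene Hsp83, and Hsf. The libraries measured polyadenylated RNA of neuroblasts, the dividing stem cells of the larval brain, and of neurons, their differentiated daughters, sorted by flow cytometry from late-stage Drosophila melanogaster larvae. All samples were labelled wild type and carried the same marker, nuclear stinger green fluorescent protein under UAS control, driven by asense-Gal4. Parents laid eggs for 24 h and the offspring were reared at 25 degrees, and the labels name no heat shock or other treatment. The part that handling before and during the sort had in the levels was not tested. The set has 5 neuroblast libraries from 3 biological replicates and 3 neuron libraries from 2, with technical pairs for neuroblast 2, neuroblast 3 and neuron 1. The labels give neither the gate that parted the sorted cells nor the number of larvae in a sample.

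The contrast of both cell types asks what sets the stem cells apart from their daughters. Levels are in FPKM, the fragments of a transcript scaled to its length and to the library, so they can be compared between genes. Differences are on the log2(FPKM + 1) scale, neuroblasts minus neurons, so that a negative value means higher in neurons, and a gene was called when limma's two-sided test gave an adjusted p under 0.05 over the 7975 genes tested. Summed over single-transcript genes, recovered fragments numbered between 953228 (neuron 2) and 16282423 (a library of neuroblast 3). Of the marker lists, 6 of 6 neuroblast genes were called higher in neuroblasts and 6 of 6 neuronal genes higher in neurons. The summed FPKM of the neuronal markers was 113 in neuroblast 1, 59.6 in neuroblast 2 and 12.1 in neuroblast 3, against 586 and 794 in the neurons. Of 6 glial markers 4 were called higher in neurons and 1 in neuroblasts, with sums of 145 to 227 FPKM in neuroblasts and 94.7 to 129 in neurons. Those sums were carried by nrv2 (123 FPKM in neuroblasts and 66.7 in neurons) and Eaat1 (65.1 and 9.05), whereas the glial regulators repo (0.597 and 8.81) and gcm (1.83 and 22.7) stood higher in neurons. Of the 4 called higher in neurons, repo, moody and alrm passed the filter through the neurons. Summed markers of blood cells, fat body, muscle and trachea reached at most 5.25 FPKM in any replicate, and the blood cell gene He was listed at 0 in all libraries. Blood cell sums were 0.155 to 0.695 FPKM in neuroblasts and 4.51 and 5.25 in neurons. Trachea sums were 0.0601 to 0.561 and 2.27 and 3.11, while muscle sums overlapped. Of these markers only Pxn and trh were tested. Both passed the filter through the neurons and were called higher there.

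Most of the 9 genes stood higher in neurons, but they were far from uniform. With limma, 5 were called higher in neurons (Hsp67Bc, l(2)efl, Hsp22, Hsp26 and Hsf) and 0 higher in neuroblasts, the same 5 and 0 as at an unadjusted p under 0.05. Of all tested genes 29.9% were called higher in neurons, 33.4% higher in neuroblasts and 63.3% either way. The replicates of the cell types did not overlap for 8 of the 9 genes, all with neurons higher, and Hsp83 was the exception, where 36.8% of all tested genes parted in that direction, 41.8% in the other and 78.6% in either. The median difference of the 9 genes was -0.95 and that of all tested genes 0.17. All 9 passed the filter on low values, l(2)efl through the neurons alone, so the direction of that gene was close to given by the filter.

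**Figure D1:**
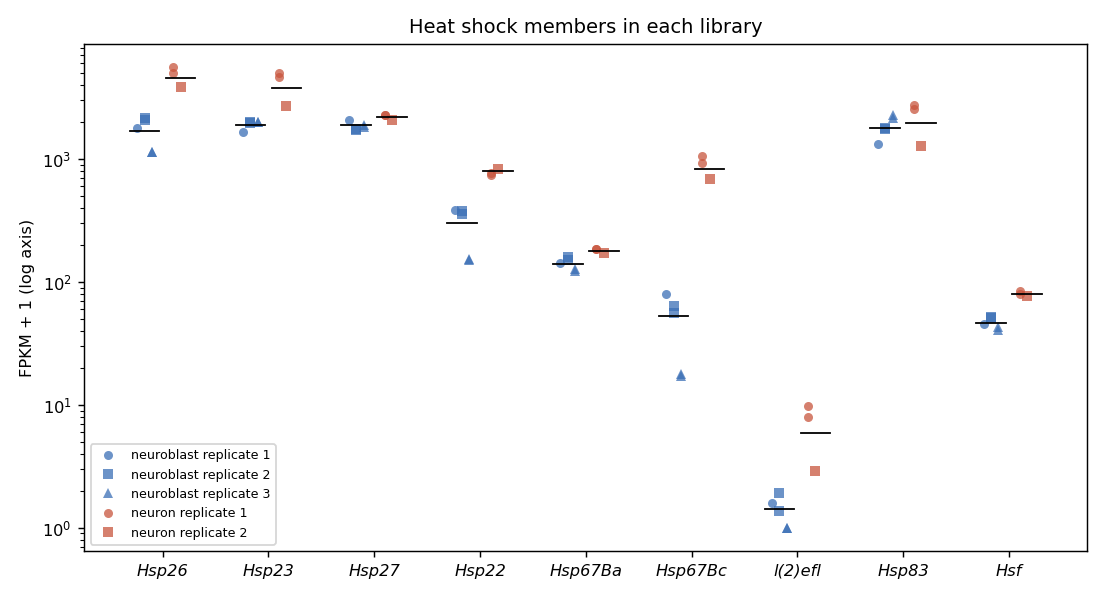
FPKM + 1 of the 9 genes in each of the 8 libraries, on a log axis, with neuroblasts in blue and neurons in red. Marker shapes give the biological replicate, repeated shapes are technical libraries, and black bars are group means of FPKM over replicates, to which 1 was added. Hsp67Bc shows the widest gap between the cell types, and the points of Hsp83 overlap.

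Of the small heat shock genes, Hsp67Bc (FBgn0001229, 3L, 9364611 to 9365583) differed most. Its product works with the co-chaperone Starvin and is the fly counterpart of human HSPB8 in autophagy of misfolded proteins. It stood at 78.9 FPKM in neuroblast 1, at 54.9 and 62.97 in the libraries of neuroblast 2, and at 16.9 and 16.0 in those of neuroblast 3. In neurons it stood at 1051 and 922 FPKM in the libraries of neuron 1 and at 684 in neuron 2. All neuron libraries thus lay above all neuroblast libraries, and neuroblast 3 was the lowest replicate. The means were 51.5 ± 31.9 FPKM over the neuroblast replicates (SD, n = 3), against 835 ± 214 over those of neurons (SD, n = 2), a 16.2-fold ratio of means. The difference was -4.23 (SE 0.63), with a limma adjusted p of 0.0015. These values rest on 234 to 622 recovered fragments in each neuroblast library and on 2366 to 4861 in each neuron library. In the authors' deposited table, Hsp67Bc was 16.9-fold higher in neurons, with an adjusted p of 1.82e-14.

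The neuroblast levels of Hsp67Bc and the neuronal markers took the same order over the replicates. Set against the neuron mean, Hsp67Bc reached 9.45% in neuroblast 1, 7.06% in neuroblast 2 and 1.97% in neuroblast 3. The summed neuronal markers reached 16.4%, 8.63% and 1.75% of their neuron mean in the same replicates. The part of neuronal RNA in these neuroblast values was not tested. Without neuroblast 1 the difference of Hsp67Bc was -4.67, and without neuroblast 3 it was -3.57. The SD of its log2 level among neuroblast replicates, 1.16, stood at percentile 96.8 of all tested genes. In these sorted but bulk samples, more cells with a transcript and more transcript per cell cannot be told apart.

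Hsp22 (FBgn0001223, 3L, 9366031 to 9368064), a small heat shock protein of the mitochondrial matrix, stood at 382 FPKM in neuroblast 1, at 377 and 359 in the libraries of neuroblast 2, and at 151 and 152 in those of neuroblast 3. The neuron libraries held 775 and 746 FPKM for neuron 1 and 824 for neuron 2. Neurons were higher throughout, and neuroblast 3 again lay well below the other neuroblasts. The means were 300.5 ± 130 FPKM over the neuroblast replicates (SD, n = 3), against 792 ± 44.8 over those of neurons (SD, n = 2), with a difference of -1.51 (SE 0.46) and a limma adjusted p of 0.024. The call was lost without neuron 1 or neuron 2, at -1.57 and -1.45, with limma adjusted p-values of 0.0811 and 0.0999. Hsp22 overlaps Hsp67Bb by 719 bases on the same strand, and Hsp67Bb was listed between 0 and 0.828 FPKM over the replicates, so how the authors' counting divided fragments between them is uncertain.

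Hsp26 (FBgn0001225, 3L, 9369518 to 9370527), an abundant cytosolic chaperone, was the highest of the 9 genes in neurons. It stood at 1781 FPKM in neuroblast 1, at 2092 and 2169.8 in the libraries of neuroblast 2, and at 1132 and 1141 in those of neuroblast 3. The neuron libraries held 5610.2 and 4997 FPKM for neuron 1 and 3879 for neuron 2. The groups did not overlap, and neuroblast 3 was again the lowest. Hsp26 ranked number 1 among all genes by FPKM in neuron 2 and number 3 in both libraries of neuron 1, while its ranks in neuroblast libraries ran from 17 to 111. The difference was -1.48 (SE 0.50), with a limma adjusted p of 0.0364. No call was left when any 1 of the 5 replicates was left out, with differences from -1.70 to -1.22 and limma adjusted p-values from 0.0507 to 0.152.

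l(2)efl (FBgn0011296, 2R, 19572174 to 19573063), named after a lethal mutation called essential for life, was barely detected in neuroblasts. It stood at 0.599 FPKM in neuroblast 1, at 0.360 and 0.913 in the libraries of neuroblast 2, and was listed at 0 in both libraries of neuroblast 3. The neuron libraries held 8.86 and 6.91 FPKM for neuron 1 and 1.89 for neuron 2. Neurons were higher without overlap, and neuron 1 was well above neuron 2. The difference was -1.88 (SE 0.49), with a limma adjusted p of 0.0132. Its size depends on the pseudocount, from -3.45 with 0.1 to -0.80 with 5 in place of 1, while the call held with either. In the authors' deposited table the gene was 14.8-fold higher in neurons, with an adjusted p of 6.84e-06. Of the 9 genes, the authors' deposited table, whose largest adjusted p is 0.00995, has a row for Hsp67Bc and l(2)efl. l(2)efl overlaps CG5431, whose strand was not given, by 78 of its 890 bases. CG5431 was listed between 0 and 0.267 FPKM over the replicates.

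Hsp23, Hsp27 and Hsp67Ba were not called. Hsp23 (FBgn0001224, 3L, 9374986 to 9375865), a cytosolic small heat shock protein, stood at 1661 FPKM in neuroblast 1, between 1967 and 2016 in the other neuroblast libraries, at 4990.3 and 4642 in the libraries of neuron 1 and at 2723 in neuron 2. Neurons were higher without overlap, but the neuron replicates lay far apart, with means of 1884 ± 193 over the neuroblast replicates (SD, n = 3), against 3769 ± 1480.3 over those of neurons (SD, n = 2). The difference was -0.95 (95% interval -2.09 to 0.20), with a limma adjusted p of 0.124. It was called with 4 other scalings of the libraries, at -1.20 to -1.72, and without the intensity trend.

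Hsp27 (FBgn0001226, 3L, 9377165 to 9378382), a small heat shock protein found mostly in the nucleus, was nearly level. Its libraries spanned 1715 to 2077 FPKM in neuroblasts and 2094 to 2269.7 in neurons. The narrow ranges did not overlap, and the difference was -0.21 (95% interval -1.19 to 0.77), with a limma adjusted p of 0.677. Hsp67Ba (FBgn0001227, 3L, 9370902 to 9372634) spanned 123 to 157 FPKM in neuroblasts and 171 to 184 in neurons. Its difference was -0.35 (95% interval -0.92 to 0.23), with a limma adjusted p of 0.246. Scaling to the protein-coding sum put Hsp27 at -0.98 and Hsp67Ba at -1.11, both then called, while the median of all tested genes moved from 0.17 to -0.58.

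**Figure D2:**
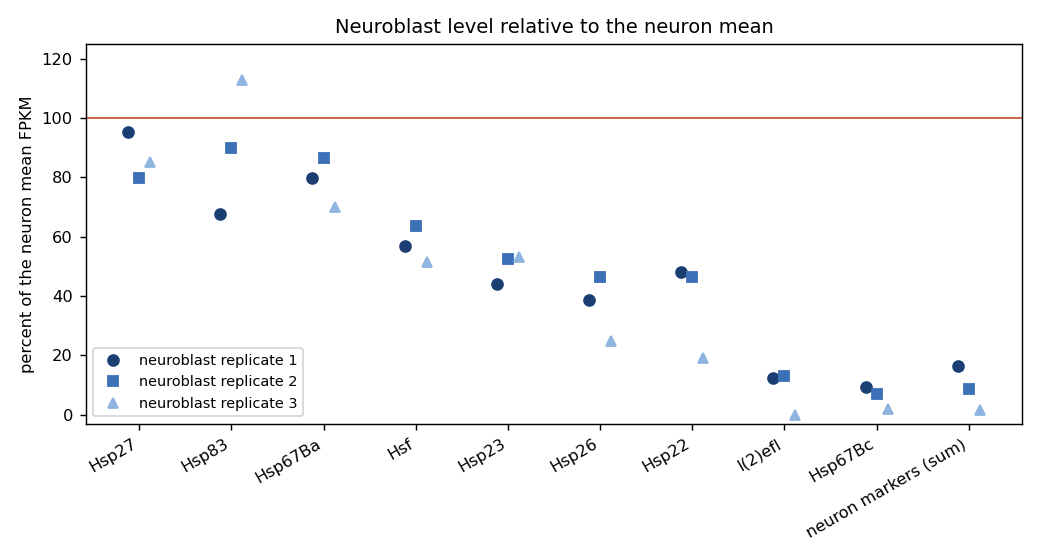
FPKM of each neuroblast replicate as a percent of the mean FPKM of the 2 neuron replicates, for the 9 genes and for the sum of 6 neuronal marker genes. The red line marks 100%. Hsp27 and Hsp67Ba lie between 70.1% and 95.2%, and Hsp67Bc lies under 10%. Neuroblast 3 is the lowest replicate for Hsp26, Hsp22, l(2)efl, Hsp67Bc, Hsp67Ba and Hsf, but not for Hsp23, Hsp27 and Hsp83.

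Hsp83 and Hsf followed different patterns. Hsp83 (FBgn0001233, 3L, 3193027 to 3197059), the sole cytosolic Hsp90 gene of the fly, stood at 1333 FPKM in neuroblast 1, at 1772 and 1776 in the libraries of neuroblast 2, and at 2169.8 and 2273 in those of neuroblast 3. The neuron libraries held 2762 and 2544 FPKM for neuron 1 and 1285 for neuron 2. The lowest and the highest replicate were thus both neuronal, and the groups overlapped. The difference was -0.09 (95% interval -1.28 to 1.10), with a limma adjusted p of 0.889, and its sign turned to 0.10 without neuroblast 1 and to 0.44 without neuron 1. Hsp83 overlaps CG14966 on the other strand by 15 bases.

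Hsf (FBgn0001222, 2R, 14017808 to 14022136), which encodes the transcription factor that binds heat shock elements, stood at 44.96 FPKM in neuroblast 1, at 49.8 and 50.6 in the libraries of neuroblast 2, and at 39.7 and 41.7 in those of neuroblast 3. The neuron libraries held 79.6 and 83.3 FPKM for neuron 1 and 76.4 for neuron 2. Replicates were tight within each cell type, and all neuron libraries were higher. The difference was -0.79 (SE 0.23), with a limma adjusted p of 0.0211. It was not called without neuroblast 1, neuron 1 or neuron 2, at -0.79, -0.75 and -0.84, with limma adjusted p-values of 0.0729, 0.17 and 0.13.

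Of the flow cells named with the deposited files, 1 held both cell types, with neuroblast 1, neuroblast 2 and neuron 1. Within it the differences were -3.83 for Hsp67Bc, -1.02 for Hsp22, -1.44 for Hsp26, -1.41 for Hsp23, -0.79 for Hsp83 and -0.76 for Hsf. That comparison has 1 neuron replicate, assumed to vary like the 2 neuroblast replicates. Hsp67Bc alone was called there, with a limma adjusted p of 0.00173, and l(2)efl did not pass the filter. Technical libraries of 1 replicate differed by at most 0.492 on the log2(FPKM + 1) scale over the 9 genes, the largest gap being that of l(2)efl in neuroblast 2.

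The order of the levels changed between the cell types. In neuroblasts Hsp27 (1892 FPKM), Hsp23 (1884), Hsp83 (1776) and Hsp26 (1683) led, and the replicate ranges of each of these neighbours overlapped. Hsp22 (300.5) followed with a gap and overlapped Hsp67Ba (139.9), and Hsp67Bc (51.5) overlapped Hsf (45.3) above l(2)efl. In neurons Hsp26 (4591 FPKM) and Hsp23 (3769) overlapped at the top, then came Hsp27 (2181) and Hsp83 (1969), which overlapped each other. Hsp67Bc (835) and Hsp22 (792) overlapped next, above Hsp67Ba (177), Hsf (78.9) and l(2)efl, which did not overlap their neighbours. Hsp67Bc thus stood next to Hsf in neuroblasts and next to Hsp22 in neurons.

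Ratios between genes of 1 library do not depend on a factor that scales the whole library, though quantile normalization can change them. For every 100 FPKM of Hsp27 there were 0.873 to 3.80 FPKM of Hsp67Bc in the neuroblasts, against 32.7 to 46.3 in the neurons. The level of Hsp26 was 0.602 to 1.27 times that of Hsp27 in neuroblasts and 1.85 to 2.47 times in neurons. Hsp22 stood at 1.19 to 2.70 times Hsp67Ba in neuroblasts and at 4.06 to 4.82 times in neurons. In each of these ratios the libraries of the cell types did not overlap, so the small heat shock genes did not shift by a common factor. Each ratio sets a called gene against one not called, so the gaps restate the differences above. Together, the 7 small heat shock genes made up 0.701% to 1.43% of the summed FPKM of neuroblast libraries and 3.02% to 4.51% of that of neuron libraries. Hsp83 made up 0.242% to 0.394% and 0.374% to 0.837%, ranges that overlap. As FPKM, the 7 small heat shock genes of neuroblast replicates summed to 42.9% to 52.1% of the neuron mean. The gap in shares is wider because all neuroblast libraries had larger FPKM sums than the neuron libraries.

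Of the 9 genes, 6 lie together on chromosome arm 3L within 13.8 kb, which holds 9 listed genes in all. From left to right these are Hsp67Bc, Hsp67Bb, Hsp22, CG4461, Hsp26, Hsp67Ba, CR43481, Hsp23 and Hsp27. CG4461, which also encodes a small heat shock protein, stood at 0.822 ± 0.787 FPKM over the neuroblast replicates (SD, n = 3), against 15.3 ± 3.34 over those of neurons (SD, n = 2), a difference of -3.25. The noncoding gene CR43481 stood at 1.29 ± 0.322 and 3.61 ± 0.0820 FPKM, a difference of -1.02. Both were called, so that 5 of the 8 tested genes in the cluster were higher in neurons and 0 in neuroblasts, against 29.9% and 33.4% of all tested genes. CG4461 had 1 neuroblast replicate above 1 FPKM and so passed the filter through the neurons, which came close to giving its direction. The nearest gene on each side was also called higher in neurons. These were Fdxh on the left, a ferredoxin gene, with -2.47, and CG4080 on the right, with -1.66. All tested genes from Hsp67Bc to Hsp26 were called, and of those to the right of Hsp26, CR43481 was called and Hsp67Ba, Hsp23 and Hsp27 were not.

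In the reference annotation, the genes Hsp23, Hsp26, Hsp27, Hsp67Ba and Hsp67Bc are each 1 exon, as is usual for heat-inducible genes, while Hsp83 has 2 exons, l(2)efl has 3 and transcripts of Hsf have 7 to 9. Transcripts of Hsp22 have 1 to 3 exons. Called and uncalled genes occur among those of 1 exon.

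**Figure D3:**
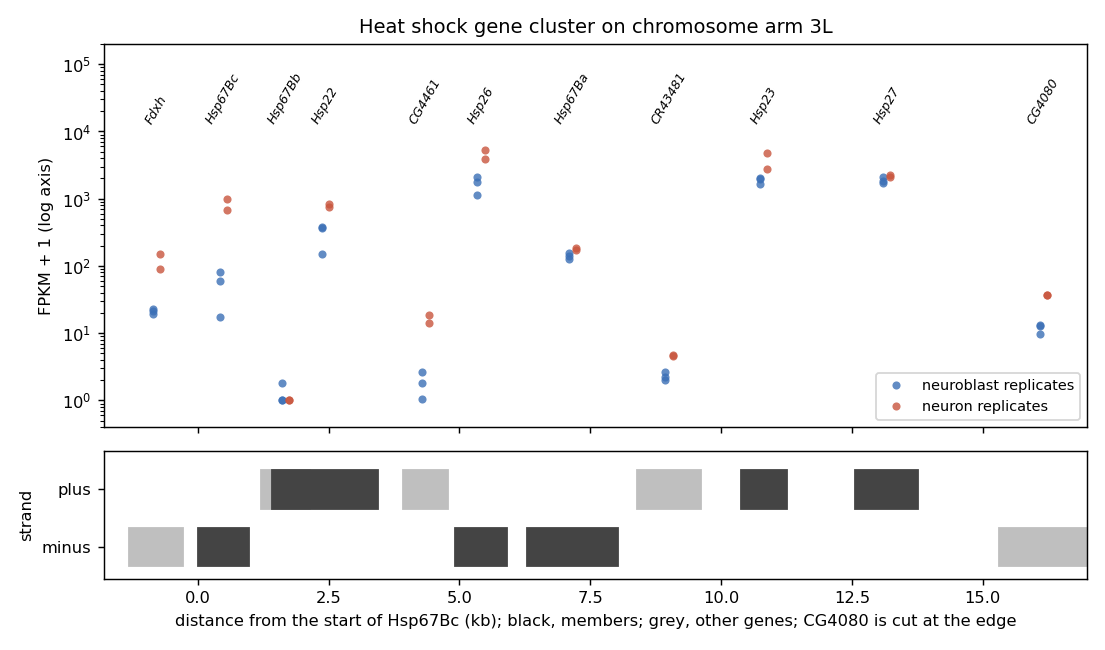
The heat shock gene cluster on chromosome arm 3L and its nearest neighbours. The upper panel plots FPKM + 1 on a log axis for 3 neuroblast replicates (blue) and 2 neuron replicates (red), and the lower panel shows gene spans by strand against the distance from the start of Hsp67Bc in kb. The widest gaps are at Hsp67Bc and CG4461, and the points of Hsp27 and Hsp67Ba nearly touch.

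Other small heat shock genes and the inducible Hsp70 genes showed the same direction. Of the 4 other alpha-crystallin genes listed, CG4461 and CG14207 were tested, and CG4461 alone was called, while CG14207 stood at 40.1 to 57.4 FPKM in neuroblasts and 57.3 to 84.4 in neurons and was called with 4 other scalings of the libraries. Of the 7 inducible Hsp70 genes 5 were called higher in neurons and 0 in neuroblasts, and they had a median of -1.92, against 29.9% and 33.4% of all tested genes. That count was 5 and 0 under each of the 18 alternatives, but without neuroblast 2 the differences of 2 of the 7 were above 0. Hsp70Ba rose from 25.6 ± 4.25 FPKM over the neuroblasts (SD, n = 3) to 97.9 ± 9.71 over the neurons (SD, n = 2), and Hsp70Bc from 18.4 ± 3.32 to 71.8 ± 10.2. Hsp70Ab and Hsp70Bbb each had a difference of -2.14. Hsp68, the most abundant, stood at 374 ± 93.1 and 1746 ± 728 FPKM. Hsp70Aa and Hsp70Bb, which were not called, spread widely: Hsp70Bb stood at 85.9, 18.6 and 292 FPKM in neuroblast 1, 2 and 3 and at 92.0 and 203 in the neurons. These Hsp70 genes are near-identical copies, Hsp68 apart, so values of single copies are uncertain and their calls are not separate evidence.

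Several chaperones that cells make without stress stood higher in neuroblasts. Of 5 tested genes for constitutive Hsp70 and Hsp110, 3 were called higher in neuroblasts and 0 in neurons. The shares of all tested genes were 33.4% and 29.9%. Hsc70-4, the main cytosolic Hsp70 of unstressed cells, stood at 2444 ± 677 FPKM over the neuroblast replicates (SD, n = 3), against 944 ± 313 over those of neurons (SD, n = 2). The mitochondrial Hsc70-5 had a difference of 1.497 and the Hsp110 gene Hsc70Cb one of 0.72. None of these 3 calls held with the protein-coding sum, where the median of the list was -0.04 in place of 0.72 and Hsc70-3 was called higher in neurons, nor without neuron 2 or within the shared flow cell. With quantile normalization 1 was called in each direction. The 3 calls fell to 1 without neuroblast 1, without neuroblast 2 or without neuron 1.

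Co-chaperones, which assist Hsp90, were split between genes called higher in neuroblasts and genes not called. Of 11 Hsp90 co-chaperones 6 were called higher in neuroblasts and 0 in neurons, against 33.4% and 29.9% of all tested genes. The median of the 11 was 1.13. The TPR protein gene Sgt stood at 110.0 ± 47.7 FPKM over the neuroblast replicates (SD, n = 3), against 17.2 ± 1.03 over those of neurons (SD, n = 2). CG16817, which the reference names p23 after the Hsp90 co-chaperone, stood at 512 ± 159 and 119 ± 55.1, Dpit47 at 73.9 ± 11.3 and 27.7 ± 3.98, and the immunophilin gene FKBP59 at 143 ± 69.6 and 50.4 ± 4.74. The 5 not called were Hop, Cdc37, CHIP, unc-45 and spag, with differences from 0.17 (Cdc37) to 0.75 (CHIP). With the protein-coding sum, and without neuron 2, 3 of the 11 were called, and 4 of the 11 differences were below 0 with that sum. Among the organelle relatives of Hsp90, the mitochondrial Trap1 was called at 1.85 and Gp93 of the endoplasmic reticulum was not, at 0.28. The level of Hsp83 was 0.691 to 0.797 times that of Hsc70-4 in neuroblast libraries and 1.78 to 2.29 times in the neurons, without overlap.

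All 9 chaperonin genes were called higher in neuroblasts, against 33.4% of all tested genes, and their median difference was 1.70. Hsp60, of the mitochondrial chaperonin, stood at 262 ± 33.7 FPKM over the neuroblast replicates (SD, n = 3), against 46.6 ± 1.45 over those of neurons (SD, n = 2). Cct5, a subunit of the cytosolic TRiC ring, stood at 421 ± 111 and 96.7 ± 24.7, and Tcp-1eta and CG5525 had differences of 1.70 and 1.91. Without neuron 2, 5 of the 9 were called, and with the protein-coding sum 6. Hsp40 proteins, which hand clients to Hsp70, went both ways, with 2 of 9 tested genes called higher in neuroblasts and 3 in neurons. These shares, 22.2% and 33.3%, were not far from the 33.4% and 29.9% of all tested genes. The mitochondrial l(2)tid and Tpr2 had differences of 2.53 and 1.07. DnaJ-1, the heat-inducible cytosolic Hsp40, stood at 249.5 ± 71.7 FPKM over the neuroblast replicates (SD, n = 3), against 812 ± 103 over those of neurons (SD, n = 2), a difference of -1.74, and DnaJ-H had -1.08. Without neuron 1, and without neuron 2, the Hsp40 counts were 1 and 2, and with the protein-coding sum 1 and 4.

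**Figure D4:**
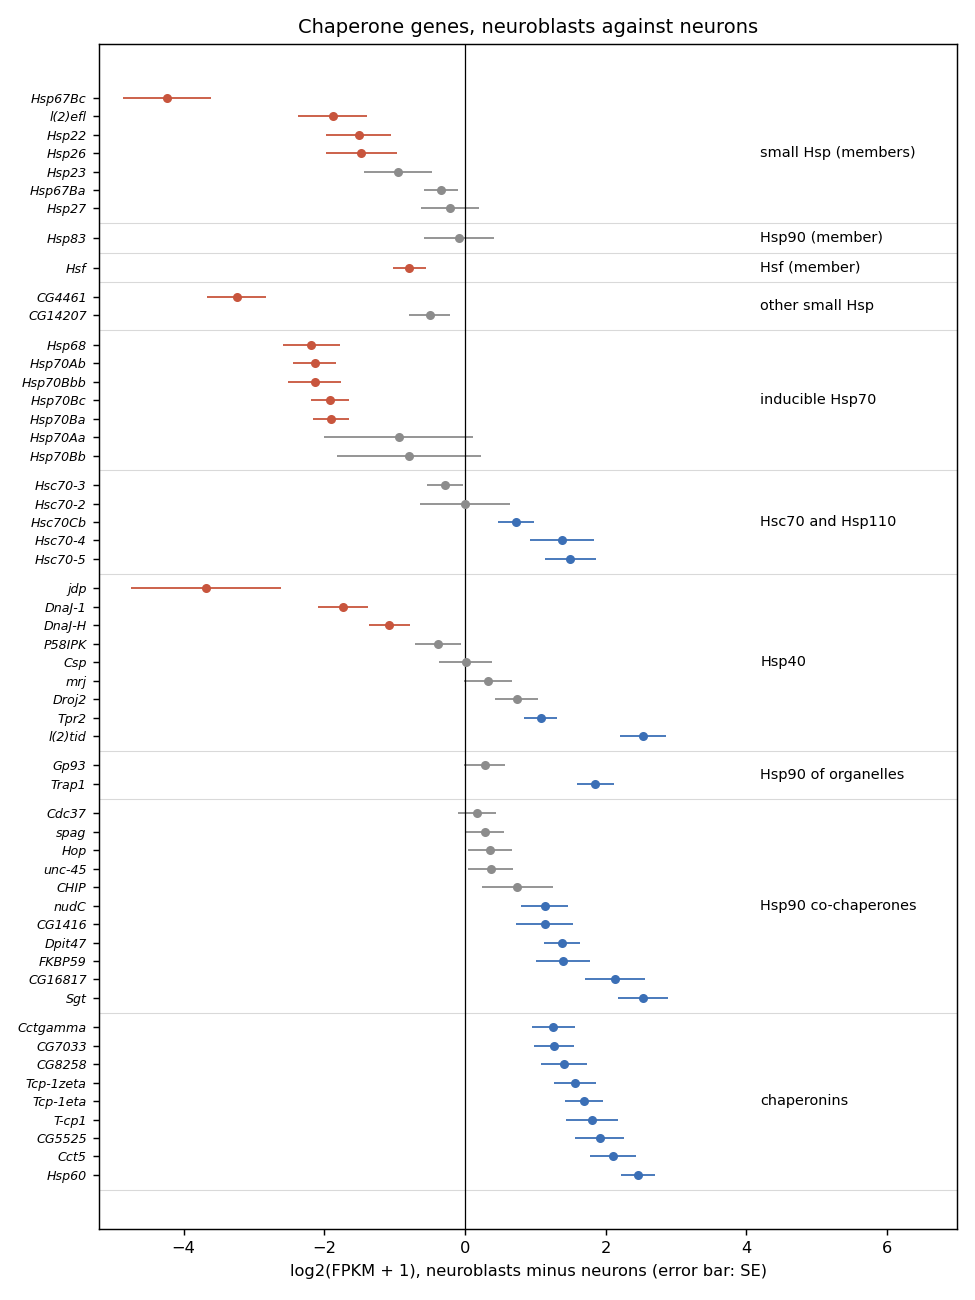
Differences on the log2(FPKM + 1) scale, neuroblasts minus neurons, with the SE as error bar, for every tested chaperone gene by class. Red and blue mark genes called higher in neurons and in neuroblasts, and grey marks genes not called. Small heat shock genes and inducible Hsp70 genes lie left of 0, and the 9 chaperonins lie right of it, between 1.25 and 2.46.

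Other stress genes were read beside these. Starvin (stv), the co-chaperone of the Hsp67Bc product, stood at 5.55 ± 3.42 FPKM over the neuroblast replicates (SD, n = 3), against 56.6 ± 4.53 over those of neurons (SD, n = 2), a difference of -3.33, and like Hsp67Bc it was lowest in neuroblast 3, at 1.60 FPKM. The autophagy receptor gene ref(2)P had a difference of -0.74, and its call was lost when any 1 replicate other than neuroblast 3 was left out. Those were 2 calls of 4 genes tested, where 29.9% of all tested genes were called higher in neurons. The heat-inducible noncoding RNA Hsromega, singled out after its values were seen, stood at 717, 349 and 38.8 FPKM in neuroblast 1, 2 and 3 and at 1319 and 2027 in neurons, and limma's adjusted p of 0.0527 missed the threshold. It was called higher in neurons under 7 of the 18 alternatives, and the authors' deposited table has it 5.45-fold higher in neurons, with an adjusted p of 1.32e-03. Of 7 early response genes 5 were called higher in neurons and 0 in neuroblasts, against 29.9% and 33.4% of all tested genes. However, Hr38 and sr passed the filter through the neurons alone, which came close to giving their direction. Puckered (puc), a phosphatase induced by JNK signalling, stood at 7.75 ± 3.45 and 61.8 ± 9.44 FPKM, the Jun gene Jra at 6.24 ± 1.46 and 26.7 ± 3.53, and Hr38 and sr had differences of -1.796 and -1.35. Without neuron 1, 2 genes were called, and without neuron 2, or within the shared flow cell, 3, with 5 genes tested in each case.

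Genes of the antioxidant defence leaned toward neuroblasts. Of 7 such genes 5 were called higher in neuroblasts and 1 in neurons, against 33.4% and 29.9% of all tested genes. The superoxide dismutase gene Sod2 stood at 156 ± 44.5 FPKM over the neuroblast replicates (SD, n = 3), against 31.4 ± 3.32 over those of neurons (SD, n = 2), GstD1 at 38.3 ± 7.66 and 10.9 ± 0.8497, and Sod at 598 ± 172 and 151 ± 40.3. The catalase gene Cat had a difference of 1.77. The regulator cnc was the call toward neurons, at -1.36, and it was lost without neuron 2. Of 6 genes of the unfolded protein response, crc and PEK were called higher in neuroblasts, at 1.91 and 0.77, and Ire1 higher in neurons, at -0.69. These shares, 33.3% and 16.7%, were not above those of all tested genes. The call of Ire1 was lost when any 1 replicate other than neuroblast 3 was left out, and that of PEK without neuroblast 1, neuron 1 or neuron 2.

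The genes most like each of the 9 over the 5 biological replicates were found by the root mean square difference of log2(FPKM + 1), each gene centred on its own mean, among genes of at least 10 FPKM. Hsp67Bc was nearest to CG42268 (0.0786), Hey (0.115) and spri (0.121). l(2)efl was nearest to Hsp68, at 0.309, then to rhea and Scgdelta. Hsp22 was nearest to simj (0.0719), Hsp26 to unk (0.0892), Hsp23 to CG3313 (0.0670), Hsp27 to aux (0.0564), Hsp67Ba to yemalpha (0.0346), Hsp83 to CG17209 (0.0810) and Hsf to CG3744 (0.0441). Of the 27 genes named by this measure, Hsp68 was the only other heat shock gene.

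**Figure D5:**
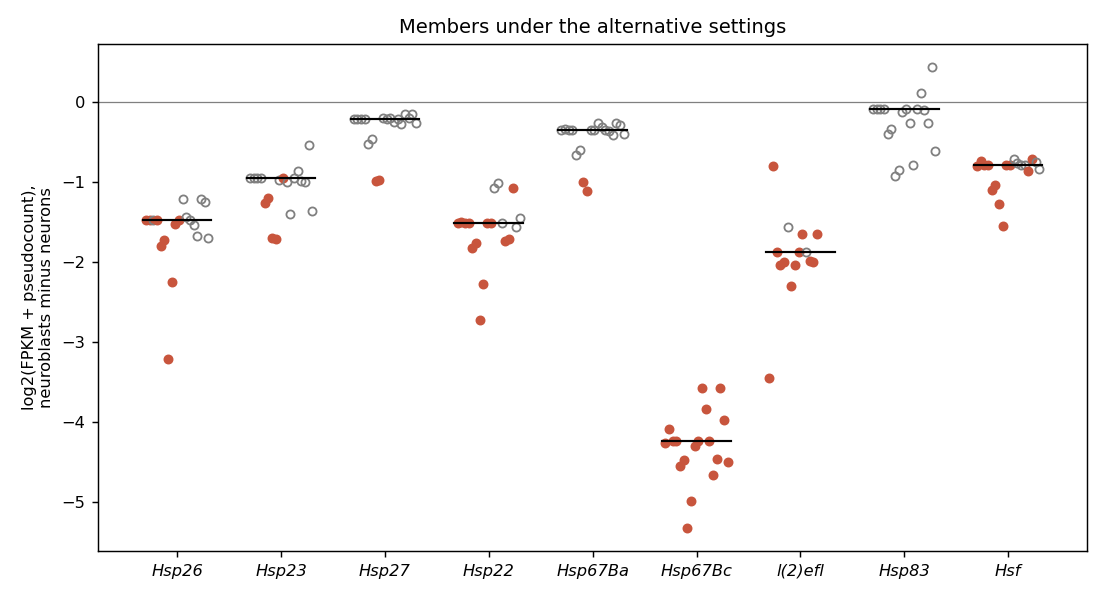
Difference of each of the 9 genes, neuroblasts minus neurons on the log2 scale, under up to 18 alternative settings. Filled red points were called, open points were not, and black bars give the reported value. Hsp67Bc was called in all 18, between -5.32 and -3.57, and Hsp83 in 0.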

How the data were processed

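Each library file holds FPKM per gene with an interval, made by the authors and, per the file headers, in the layout of Cufflinks. The submitters' processing notes list, without roles, DESeq 1.8.3, HTSeq, Cufflinks 1.3.0, BWA 0.6.1 and TopHat 1.4.1. The authors' deposited table gives a fold (ratio) of neuroblasts over neurons, its log2, p-values with their adjustment, and a mean signal per cell type that was not printed here, per the file headers. Coordinates are the files' own with a 1-based start, on a build not given in the sources used here. An annotation of another build (release 115) gave strands, exons and biotypes for 13575 of 14210 identifiers. The libraries marked the strand, per the labels' protocols, but no source used here says whether counting read it.

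Technical libraries were averaged on the log2 scale into 3 and 2 biological replicates, and group means and SDs are of FPKM. Nothing in the labels says that replicates come from separate animals, so p-values measure the spread between these samples. Tests used log2(FPKM + 1) in limma 3.58.1 (R 4.3.3), with its intensity trend. Genes needed 1 FPKM or more in 2 or more replicates, and p-values of the 7975 kept were adjusted after Benjamini and Hochberg. The procedure was tested on simulated data with independent noise for each gene. That test cannot show how library scaling or sorting affects the calls. Fold changes on this scale understate low genes. Fragment numbers were derived from the width of the Cufflinks interval, taken as Poisson error, and for single-transcript genes 91.0% to 91.6% of those under 200 lay within 0.05 of an integer. Summed FPKM per library lay between 321551 and 753682, with all neuroblast libraries above the neuron libraries. The 9 genes, 11 gene lists, tests and alternatives were chosen with earlier results of these data known. Named are the 9 genes, up to 4 called genes per list by smallest adjusted p, the 3 genes most like each of the 9, and the cluster with its neighbours. Hsp68, Hsp70Aa, Hsp70Bb, CG14207, Gp93, Hsc70-3, Hsromega, cnc and the co-chaperones not called fall outside that rule and were named after their values were seen.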

Additional observations from a re-analysis of the deposited data

How the results depend on the processing

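The 5 genes called higher in neurons were 8 with the protein-coding sum, 2 with the replicate block, 1 within the shared flow cell, 1 at an adjusted p under 0.01, and 1 to 4 when a replicate was left out, and 0 were called higher in neuroblasts under all 18 alternatives. The numbers 3, 1 and 1 were those without neuroblast 1, neuron 1 and neuron 2. Without neuron 1 or neuron 2, and within the shared flow cell, the lone neuron replicate was assumed to vary like the neuroblasts. Hsp67Bc was called in 18 of 18, l(2)efl in 12 of 14 where it passed the filter, Hsp22 in 13, Hsf in 12, Hsp26 in 9, Hsp23 in 5, Hsp27 and Hsp67Ba in 2 each and Hsp83 in 0 of 18. Hsp83 ranged from -0.61 to 0.44 over left-out replicates, turning to 0.10 without neuroblast 1 and to 0.44 without neuron 1, and neither value was called. Over all tested genes the calls were 2667 toward neuroblasts and 2381 toward neurons. With the protein-coding sum these were 1745 and 3657, so that 32.3% and not 52.8% of the calls were toward neuroblasts. The shared flow cell gave 1404 toward neurons, and leaving out a replicate gave 1792 to 2627 and 1095 to 2434. Of the 396 counts of the gene lists, 55 moved by over 1.5 times, or to or from 0. Counts of 0 that stayed 0 are among the 396. The replicate block joined samples of the same number, and the labels do not say that these belong together. Neuroblast 3 has no neuron of its number, so the block gave the same differences as leaving neuroblast 3 out, such as -0.72 for Hsf. Deviations from the group means correlated at -0.517 for number 1 and -0.394 for number 2. With 2 neuron replicates, the deviations of neuron 1 and neuron 2 mirror each other, so these correlations cannot decide whether the numbers mark pairs. With 2 neuron replicates and neuron libraries of 953228 to 1443297 recovered fragments, intervals were wide, as that of Hsp83 shows, and the causes of lost calls were not tested.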
